A study of Homo sapiens with 18 samples.

Results

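The comparison set small interfering RNA (siRNA) against Stat5a and Stat5b beside siRNA against Stat3 in CWR22Rv1, an established human prostate cancer line derived from a xenograft that had relapsed after castration. It used 6 of the 18 arrays of the series, chosen by their labels: the 3 arrays of cells given Stat5a/b siRNA minus the 3 arrays of cells given Stat3 siRNA, with no control array in the difference. A positive difference below therefore means a higher signal with Stat5a/b siRNA than with Stat3 siRNA. CWR22Rv1 cells that received a scrambled siRNA (3 arrays) are given beside them for description, and the same contrast in DU145, another established human prostate cancer line (3 arrays with each siRNA), serves as the comparison. Both lines were grown in serum-containing medium, every culture was transfected with the lipid reagent Lipofectamine 2000, and all cells were harvested 48 h later. The labels do not give the siRNA sequences or how many siRNAs were used per target, and no untransfected cells or second siRNA set enters the comparison. The labels speak of unpooled triplicates without saying whether they were separate cultures, and if they were not, the p-values reflect technical spread alone.

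STAT3 and the near-identical pair STAT5A and STAT5B are transcription factors that wait in the cytoplasm until a Janus kinase, bound to a cytokine or growth factor receptor, phosphorylates them, after which they dimerise and bind DNA. STAT3 is best known for signalling from the IL-6 family of cytokines, and STAT5A and STAT5B for signalling from prolactin, growth hormone and several interleukins. Both have been studied as supports of growth and survival in prostate cancer cells.

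STAT3 was low with Stat3 siRNA and STAT5B was low with Stat5a/b siRNA, so the contrast was positive for the first and negative for the second, while STAT5A did not pass the test. The STAT3 signal (log2 units) was 6.04, 6.31 and 6.11 with Stat3 siRNA, 7.52, 7.42 and 7.31 with Stat5a/b siRNA, and 7.40, 7.21 and 7.24 with scrambled siRNA. Stat3 siRNA arrays were low and did not overlap with either other group. The difference was 1.27 ± 0.090 (SE, n = 3 arrays per group, limma, Benjamini-Hochberg adjusted p = 2.3e-07; every ± below is an SE of this kind), and the Stat3 siRNA arrays held 45.7% of the control signal. STAT3 has 3 other probe sets, of which 2 rose and 1 did not pass the test, over a range of -0.16 to 1.90.

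STAT5B read 7.17, 6.90 and 7.04 with Stat5a/b siRNA, 7.86, 7.79 and 7.83 with Stat3 siRNA, and 8.0, 7.87 and 7.95 with scrambled siRNA. All 3 Stat5a/b siRNA arrays lay below every other CWR22Rv1 array, and the difference was -0.79 ± 0.091 (SE, limma adjusted p = 3.3e-05), at 53.4% of control. Of 4 other STAT5B probe sets, 2 fell and 2 did not pass the test (range -0.83 to 0.33). STAT5A gave 5.56, 6.11 and 6.22 with Stat5a/b siRNA against 6.14, 6.23 and 6.17 with Stat3 siRNA, and the groups overlapped. Its difference of -0.22 ± 0.13 (SE, limma adjusted p = 0.319) rested on the first Stat5a/b siRNA array and was -0.019 without it.

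**Figure D1:**
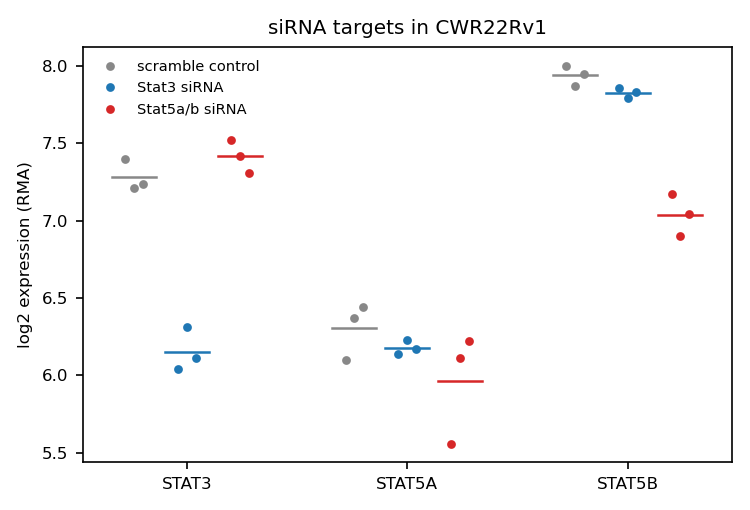
Log2 signal of STAT3, STAT5A and STAT5B on each of the 9 CWR22Rv1 arrays, by siRNA group, with points for arrays and lines for group means. STAT3 was low on the Stat3 siRNA arrays (6.04 to 6.31), STAT5B was low on the Stat5a/b siRNA arrays (6.90 to 7.17), and STAT5A was low on 1 array, at 5.56.

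Over 19775 genes, 2126 (10.8%) passed an adjusted p of 0.05 between the siRNAs (limma). Of these, 930 (4.70%) were higher and 1196 (6.05%) were lower with Stat5a/b siRNA than with Stat3 siRNA. Higher genes made up 43.7% of the calls as deposited, 55.8% after quantile normalisation (1217 higher, 965 lower) and 54.6% after cyclic loess (1185 higher, 985 lower), so which direction held more calls depended on the scaling. Most differences were small, with a median size of 0.36 among called genes, and 32 genes (15 higher, 17 lower) reached 2-fold. The median over all genes was 0.03, and this is the value beside which the medians of the gene groups below stand. Their counts of higher and lower genes stand beside the 4.70% and 6.05% over all genes. Leaving out 1 of the 6 arrays gave 1388 to 1640 calls; the lowest, 1388 and 1416, came without Stat3 siRNA replicates 1 and 3.

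The 9 CWR22Rv1 arrays were alike in distribution, with array medians of 5.16 to 5.20 over the whole series and a correlation across genes of 0.9964 to 0.9975 within a CWR22Rv1 group. Between the Stat3 and Stat5a/b siRNA arrays it was 0.9935 to 0.9954. The 3' minus 5' signal of the GAPDH control probe sets, a measure of RNA integrity and labelling, was 0.0719 to 0.0994 with Stat3 siRNA and 0.125 to 0.147 with Stat5a/b siRNA, without overlap. The same measure for ACTB was 0.632 to 0.848 and 0.728 to 0.841, with overlap, and the part of either in the results was not tested. Luminal prostate markers were present: KLK2 and CDH1 had 9 array values of 9.77 to 10.16 and 11.81 to 12.09, and all 7 luminal markers missed the threshold. In bulk RNA, fewer cells of a type and less RNA per cell cannot be told apart.

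Among the 15 largest falls, the genes lowest with Stat5a/b siRNA relative to Stat3 siRNA, REEP3, which encodes a protein shaping the endoplasmic reticulum, led. It read 8.31, 8.25 and 8.58 with Stat5a/b siRNA, 9.94, 9.87 and 10.12 with Stat3 siRNA, and 10.00, 9.87 and 9.92 with scrambled siRNA. The Stat5a/b siRNA arrays stood alone and low, 3.03-fold under the Stat3 siRNA arrays (-1.60 ± 0.12, limma adjusted p = 4.9e-07). LCOR, a corepressor of nuclear receptors, read 7.88, 7.75 and 7.86 against 9.11, 9.22 and 9.37, with controls at 8.78, 8.82 and 8.85. Here all 3 groups were separate, with the control arrays in between, and the difference was -1.41 ± 0.092 (limma adjusted p = 2.0e-07). PLPPR4, a membrane protein related to lipid phosphatases, read 4.33, 4.50 and 4.71 against 5.79, 5.65 and 5.85, and the controls were higher still, at 6.47, 6.27 and 6.36. Both siRNA groups lay under the controls, Stat5a/b siRNA further (-1.25 ± 0.17, limma adjusted p = 1.7e-04).

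VLDLR, a receptor for triglyceride-rich lipoproteins and reelin, read 4.64, 4.40 and 4.62 against 5.71, 5.52 and 5.82, beside controls at 5.60, 5.62 and 5.48. The Stat3 siRNA and control arrays overlapped and the Stat5a/b siRNA arrays were low (-1.14 ± 0.11, limma adjusted p = 8.0e-06). The other falls were EGR1 (described with the immediate-early genes), FBXO8, an F-box protein (-1.25), the small GTPase RAB31 (-1.21), LOC105371703 (-1.19), the mitochondrial serine transporter SFXN1 (-1.18), the ectoenzyme ENPP4 (-1.16), the clathrin adaptor subunit AP1S3 (-1.10), the centrosomal protein CEP19 (-1.08), the antisense transcript CCDC28A-AS1 (-1.07), C4orf46 (-1.06) and the clock transcription factor BMAL2 (-1.03). Adjusted p over the 15 ran from 2.0e-07 to 0.00685. Against scrambled siRNA, 14 of the 15 were lower with Stat5a/b siRNA (background 3.30%) and 6 were higher with Stat3 siRNA (background 2.75%); both comparisons share arrays with the contrast. For 3 of the genes the most variable probe set gave no call: RAB31 (-0.41, adjusted p = 0.292), SFXN1 (-0.11, 0.852) and BMAL2 (-0.40, 0.102).

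The 15 largest rises were led by LPL, CGA and GPNMB, with the targeted STAT3 next, and these genes were laid out differently over the groups. LPL, the lipoprotein lipase that frees fatty acids from circulating triglyceride, read 7.72, 7.65 and 7.61 with Stat3 siRNA, 9.15, 9.10 and 9.08 with Stat5a/b siRNA, and 9.32, 9.22 and 9.22 with scrambled siRNA. The Stat3 siRNA arrays stood low and apart, and the difference was 1.45 ± 0.23 (limma adjusted p = 6.3e-04). CGA, the common alpha subunit of the glycoprotein hormones, read 9.34, 9.39 and 9.41 with Stat5a/b siRNA, 7.95, 8.02 and 8.0 with Stat3 siRNA, and 8.36, 8.45 and 8.61 with scrambled siRNA. Controls lay between the siRNA groups without overlap (1.39 ± 0.24, limma adjusted p = 0.00116). GPNMB, a transmembrane glycoprotein of melanosomes and lysosomes, read 8.53, 8.53 and 8.32 with Stat5a/b siRNA against 7.11, 7.14 and 7.21, with controls at 7.36, 7.28 and 7.30. The Stat5a/b siRNA arrays were high and the other groups close together (1.31 ± 0.11, limma adjusted p = 9.3e-07).

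MSMB, which encodes the prostatic secretory protein beta-microseminoprotein, read 5.39, 4.72 and 5.37 with Stat5a/b siRNA, 4.20, 4.03 and 4.06 with Stat3 siRNA, and 4.41, 3.95 and 3.96 in controls. The Stat5a/b siRNA arrays were the highest and varied most (1.06 ± 0.17, limma adjusted p = 7.0e-04). The remaining rises were the peroxisomal carnitine octanoyltransferase CROT (1.21), the mTOR inhibitor DDIT4L (1.10), BEX4 (1.09), the GABA transaminase ABAT (1.09), TPRG1L (1.09), the kinase NEK5 (1.09), C1orf115 (1.06), the neutral amino acid transporter SLC6A15 (1.05), LRATD1 (1.02) and the actin and phosphatase regulator PHACTR2 (1.02). The range of adjusted p over the 15 was 2.0e-07 to 0.0231. LRATD1 lost its call without any 1 of the 6 arrays (limma adjusted p 0.0607 to 0.0695), at differences of 1.00 to 1.05. Its SE pools the spread of all 18 arrays. The standard deviation of LRATD1 with Stat3 and Stat5a/b siRNA was 0.043 and 0.027 in CWR22Rv1 and 0.77 and 0.34 in DU145. CROT gave 0.37 (adjusted p = 0.178) at its most variable probe set. The comparisons with scrambled siRNA share arrays with the contrast that picked these genes. In them, 9 of the 15, the targeted STAT3 included, were lower with Stat3 siRNA (background 2.02%). With Stat5a/b siRNA, 7 were higher (background 3.16%). PHACTR2 shows the first pattern, at 7.71, 7.60 and 7.66 with Stat3 siRNA against 8.67, 8.60 and 8.77 with Stat5a/b siRNA and 8.81, 8.82 and 8.82 in controls.

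**Figure D2:**
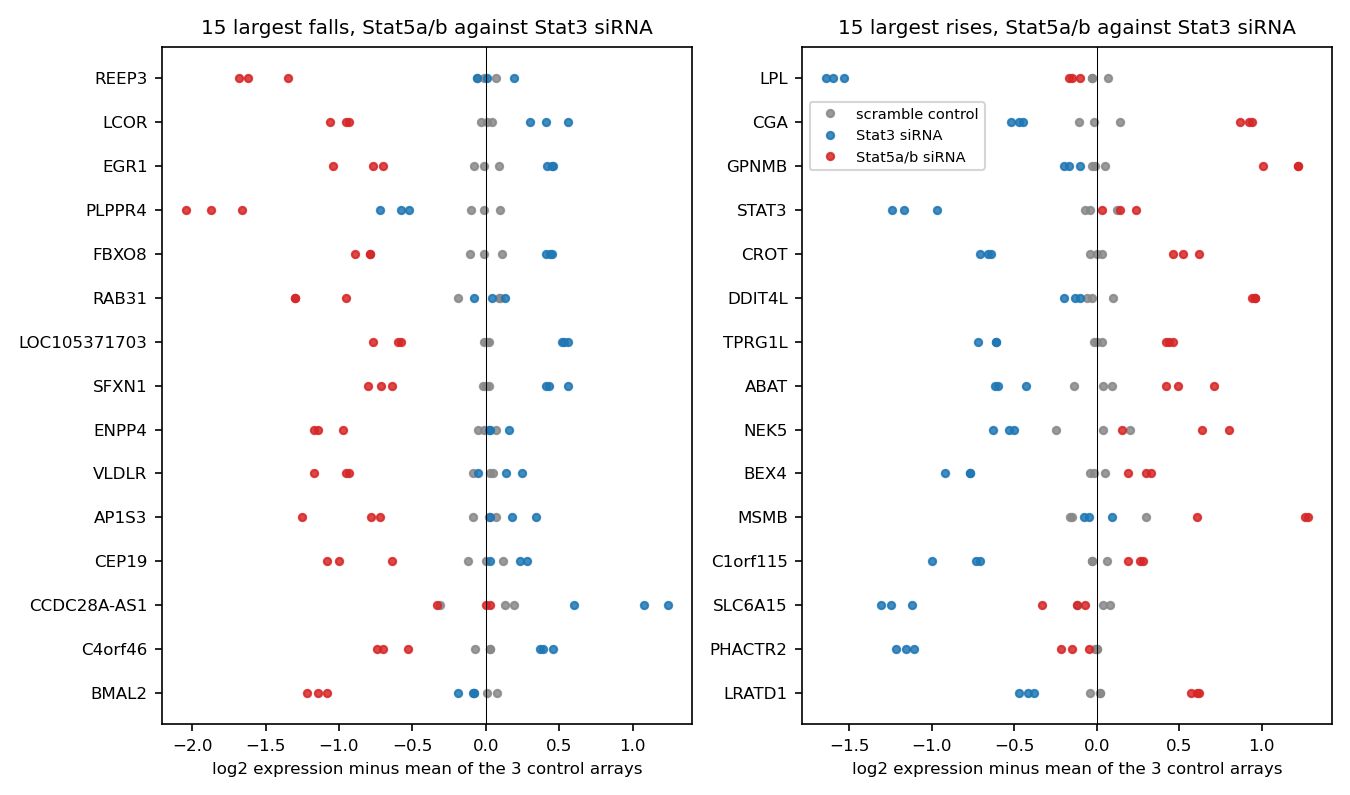
The 15 largest falls (left) and 15 largest rises (right) between Stat5a/b and Stat3 siRNA in CWR22Rv1, with each array drawn as its log2 signal minus the mean of the 3 scrambled-siRNA arrays. Most falls sit low on the Stat5a/b siRNA arrays (REEP3 at -1.60 between the siRNAs), while rises such as LPL sit low on the Stat3 siRNA arrays and rises such as GPNMB sit high on the Stat5a/b siRNA arrays.

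Genes of DNA replication and mitosis were called in 1 direction. Of 37 measured genes of DNA replication and the G1/S transition, 23 were lower with Stat5a/b siRNA, 0 were higher and 14 did not pass the test (limma), with a median difference of -0.28. Of 33 genes of mitosis and G2/M, 23 were lower, 0 were higher and 10 did not pass, with a median of -0.26. At an unadjusted p of 0.05, 27 and 29 were lower and 0 higher. Against the background of 6.05% lower genes, these counts stood at 23 of 37 and 23 of 33. On 31 of the 37 replication genes and 31 of the 33 mitosis genes all Stat5a/b siRNA arrays lay below all Stat3 siRNA arrays, where 17.3% of all genes did so. Leaving out 1 array gave 20 to 23 lower replication genes and 18 to 21 lower mitosis genes.

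The controls lay between the siRNA groups. The mean of the replication genes, set to the control mean, was 0.16, 0.14 and 0.14 on the Stat3 siRNA arrays and -0.10, -0.10 and -0.14 on the Stat5a/b siRNA arrays. The mean of the mitosis genes was 0.22, 0.18 and 0.20 on the Stat3 siRNA arrays and -0.072, -0.086 and -0.090 on the Stat5a/b siRNA arrays. Against scrambled siRNA, Stat3 siRNA called 8 replication and 17 mitosis genes higher (2.75% of all genes), again on shared arrays. Stat5a/b siRNA called 8 replication and 2 mitosis genes lower (3.30% of all genes), and 2 of 33 is near that share.

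CDC6, which loads the replicative helicase at origins, read 9.04, 9.04 and 9.12 with Stat5a/b siRNA, 9.72, 9.77 and 9.67 with Stat3 siRNA, and 9.30, 9.17 and 9.29 in controls. The 3 groups were fully separate, with a difference of -0.65 ± 0.058 (limma adjusted p = 2.2e-06). Smaller falls were seen for the cell-cycle transcription factor E2F2 (-0.50 ± 0.071), thymidylate synthase TYMS (-0.36 ± 0.048) and GINS2, a subunit of the replicative helicase (-0.37 ± 0.051), with limma adjusted p of 2.4e-04, 1.2e-04 and 1.8e-04. The mean of all GINS2 probe sets gave -0.11 (adjusted p = 0.279). The spindle checkpoint kinase BUB1B read 10.18, 10.24 and 10.21 against 10.74, 10.74 and 10.75, with controls at 10.53, 10.53 and 10.56. Replicates lay close together and the groups did not meet (-0.53 ± 0.052, limma adjusted p = 5.2e-06). The mitotic kinesins KIF2C and CENPE (both -0.45) and the phosphatase CDC25C, which activates the mitotic cyclin-dependent kinase (-0.41), fell as well. Survivin (BIRC5), which acts in mitosis and blocks apoptosis, fell by 0.31 (limma adjusted p = 0.00248), and its most variable probe set gave the same -0.31 without a call (adjusted p = 0.265). This and the other two of its further probe sets ranged from -0.47 to -0.31, and 2 of these 3 were called lower.

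**Figure D3:**
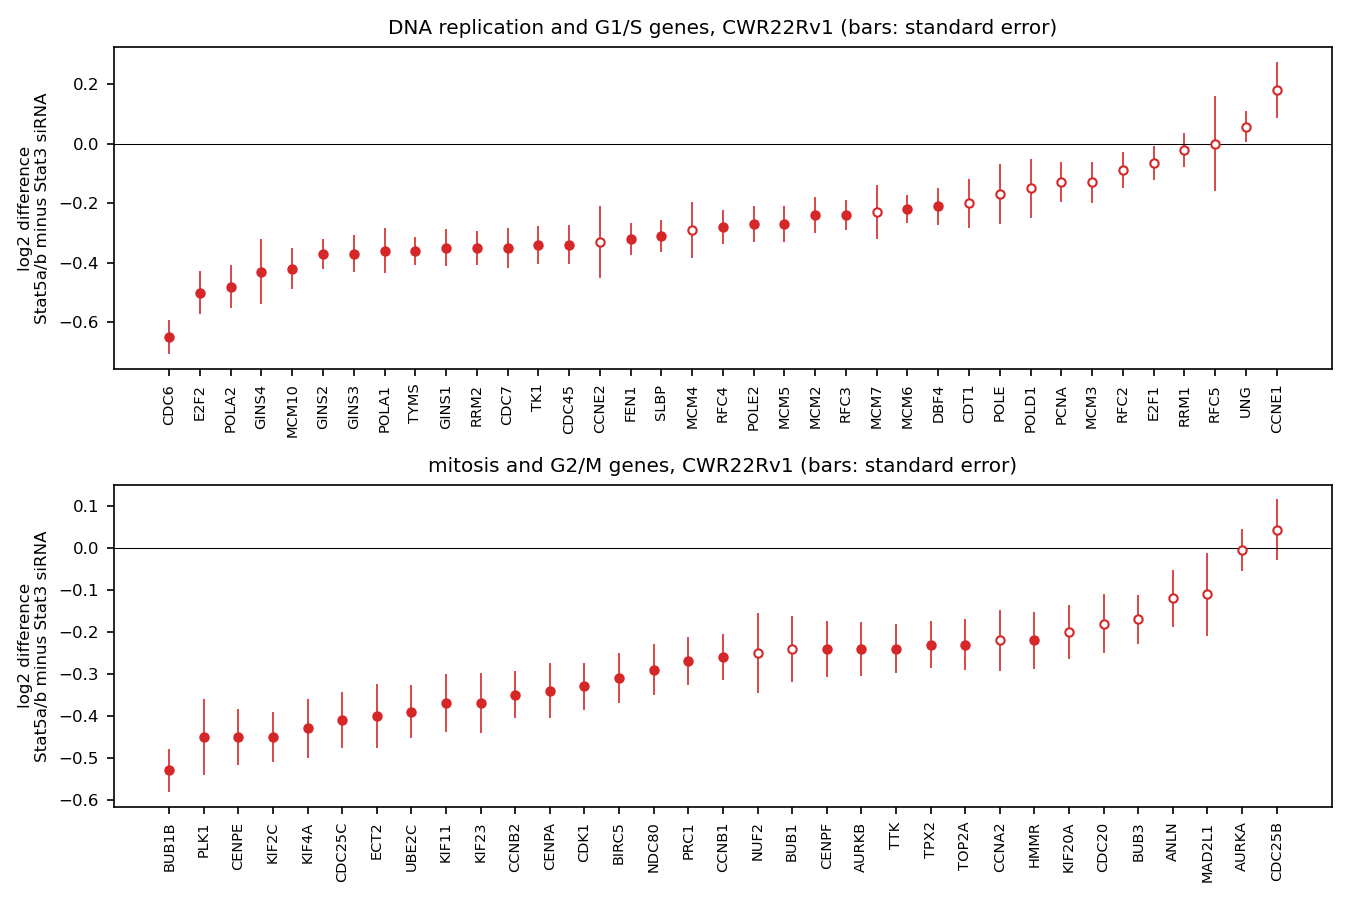
Difference between Stat5a/b and Stat3 siRNA in CWR22Rv1 (log2, ± SE) for 37 replication and 33 mitosis genes, with filled points for genes past an adjusted p of 0.05. Filled points are all below 0, 23 in each group.

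The promoters of these genes are shown because many genes of these lists hold the same short sequences near their start. The cell-cycle homology region (CHR, letters TTTGAA) and the CCAAT box are known in promoters of mitotic genes, and E2F factors bind letters such as TTTCCCGC or TTTGGCGC. Both strands of the 250 bases before the start were searched in the RefSeq promoter table (GRCh38.p14), which held 15384 of the tested genes; the motifs do not contain one another. Of 27 mitosis genes in the table, 14 (51.9%) held TTTGAA and 19 (70.4%) held CCAAT, beside 10.6% and 34.1% of all promoters. Of 33 replication genes, 12 (36.4%) held TTTCCCGC or TTTGGCGC, beside 2.54% of all promoters. Among the genes called lower the shares were 63.2% for TTTGAA and 73.7% for CCAAT (12 and 14 of 19 mitosis genes) and 28.6% for the E2F letters (6 of 21 replication genes), the last under that of the whole list. A match is a description of the letters, and binding was not measured. The promoters of cyclin B2 (CCNB2, chr15:59104896-59105145, plus strand) and the kinesin KIF4A (chrX:70289854-70290103, plus strand), with CCAAT and TTTGAA or their reverse complements in capitals, and that of GINS2 (chr16:85688955-85689204, minus strand), with the reverse complement of TTTCCCGC in capitals, are:
CCNB2: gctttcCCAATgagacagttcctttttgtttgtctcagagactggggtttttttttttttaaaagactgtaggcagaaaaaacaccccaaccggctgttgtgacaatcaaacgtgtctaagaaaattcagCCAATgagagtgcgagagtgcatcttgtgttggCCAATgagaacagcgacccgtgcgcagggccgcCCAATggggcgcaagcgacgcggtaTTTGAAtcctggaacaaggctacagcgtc
KIF4A: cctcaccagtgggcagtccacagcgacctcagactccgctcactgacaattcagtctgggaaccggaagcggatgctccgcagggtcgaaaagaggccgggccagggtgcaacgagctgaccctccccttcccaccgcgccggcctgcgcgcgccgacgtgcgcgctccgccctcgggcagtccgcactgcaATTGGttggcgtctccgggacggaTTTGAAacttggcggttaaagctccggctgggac
GINS2: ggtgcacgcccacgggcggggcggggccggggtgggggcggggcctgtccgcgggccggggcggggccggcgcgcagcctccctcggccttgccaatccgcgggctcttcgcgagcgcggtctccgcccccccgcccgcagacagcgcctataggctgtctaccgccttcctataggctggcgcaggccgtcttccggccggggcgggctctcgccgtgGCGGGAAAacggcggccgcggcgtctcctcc

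CCNB2, a regulatory subunit of the mitotic kinase, read 10.59, 10.63 and 10.55 with Stat5a/b siRNA and 10.98, 10.88 and 10.95 with Stat3 siRNA, without overlap (-0.35 ± 0.056, limma adjusted p = 6.5e-04). KIF4A read 9.38, 9.45 and 9.38 against 9.89, 9.81 and 9.78, also without overlap (-0.43 ± 0.071, limma adjusted p = 9.0e-04). Both were picked for their motifs among the called genes. CCNB2 held 4 CCAAT matches, at 244, 120, 87 and 54 bases before the start, and TTTGAA at 29 bases. In KIF4A the single CCAAT match began 58 bases and TTTGAA 34 bases before the start, and in GINS2 the E2F letters began 31 bases before it.

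Inhibitors of cyclin-dependent kinases moved both ways. CDKN1A (p21), which holds cells in G1, read 10.11, 10.17 and 10.16 with Stat5a/b siRNA, 9.36, 9.38 and 9.38 with Stat3 siRNA, and 9.02, 9.08 and 9.03 in controls. All groups were separate, with both siRNAs above the controls and Stat5a/b siRNA highest (0.77 ± 0.091, limma adjusted p = 4.0e-05). CDKN2B (p15), an inhibitor of the cyclin D kinases, read 5.17, 5.28 and 5.20 against 6.11, 5.99 and 6.07, with controls at 5.72, 5.61 and 5.60. It was lowest with Stat5a/b siRNA and highest with Stat3 siRNA (-0.84 ± 0.073, limma adjusted p = 1.8e-06). The other CDKN2B probe set gave -0.054, without a call. CDKN3, a phosphatase that peaks with mitotic genes, fell by 0.51, and the other 4 of the 7 inhibitors did not pass the test.

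Cyclin D1 (CCND1), the partner of CDK4 and CDK6 in G1, read 12.01, 12.01 and 12.10 with Stat5a/b siRNA against 12.42, 12.48 and 12.43 with Stat3 siRNA, with controls at 12.21, 12.19 and 12.15. It fell by 0.40 (SE 0.061, limma adjusted p = 4.0e-04), with controls between. Of 11 genes of D cyclins, their kinases and the pocket proteins, 4 were lower (6.05% of all genes) and 1 was higher (4.70%). The death receptor FAS (0.61 ± 0.055) and the AKT repressor PHLDA3 (0.55 ± 0.094) rose, with limma adjusted p of 2.4e-06 and 9.5e-04.

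Immediate-early and feedback genes downstream of the ERK MAP kinases were called lower more often than higher with Stat5a/b siRNA: 8 of 24 fell (6.05% of all genes were lower), 1 rose (4.70% of all genes were higher) and 15 did not pass the test, with a median of -0.22. EGR1, an immediate-early zinc finger factor, read 6.39, 6.66 and 6.73 with Stat5a/b siRNA, 7.89, 7.85 and 7.88 with Stat3 siRNA, and 7.52, 7.42 and 7.35 in controls. All groups were separate, with Stat5a/b siRNA arrays low and Stat3 siRNA arrays high (-1.28 ± 0.20, limma adjusted p = 4.6e-04). The 2 other EGR1 probe sets gave -1.02 and -0.18, without a call. FOS, the AP-1 subunit, read 4.96, 4.92 and 4.73 against 5.92, 5.81 and 5.61, with controls at 5.09, 5.24 and 5.26. Here the Stat3 siRNA arrays were high and the controls lay just above the Stat5a/b siRNA arrays (-0.91 ± 0.16, limma adjusted p = 0.0013).

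The ETS factors of the PEA3 group, which ERK signalling induces, fell. ETV5 read 7.17, 7.42 and 7.32 with Stat5a/b siRNA, 8.05, 8.0 and 8.12 with Stat3 siRNA, and 7.85, 7.86 and 7.84 in controls, with the Stat5a/b siRNA arrays well below the rest (-0.76 ± 0.085, limma adjusted p = 2.6e-05). Of 4 other ETV5 probe sets, 0 were called (range -0.67 to 0.055). ETV1 fell by 0.76 (limma adjusted p = 1.9e-04) and ETV4 by 0.67. The ERK pathway inhibitors SPRED1 (-0.72) and SPRED2 (-0.40) fell too. PHLDA1 differed by -0.92 (limma adjusted p = 4.9e-04), but by -0.37 over the mean of its probe sets (adjusted p = 0.0804) and by 0.028 at its most variable one. DUSP1, a phosphatase of MAP kinases, was the gene that rose (0.68 ± 0.17, limma adjusted p = 0.017). ETV4, SPRED1, SPRED2 and DUSP1 were named after their values were seen. The count of 8 lower genes was 13 with only the 9 CWR22Rv1 arrays fitted and 5 among genes with a mean above 7.

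EGR1 was the 1 gene among 13 of the 15 largest falls with a promoter in the table that held TTCNNNGAA, the palindrome to which STAT dimers bind, in the 250 bases before its start; of 12 rises, 0 held it. The stretch is shown as the only match among those genes; STAT binding was not measured. The motif, in capitals, begins 228 bases before the EGR1 start, within chr5:138465229-138465319 (GRCh38.p14, plus strand, RefSeq):
EGR1: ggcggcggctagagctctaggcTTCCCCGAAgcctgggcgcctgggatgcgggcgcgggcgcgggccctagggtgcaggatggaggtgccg

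The same palindrome was in 5.26% of the promoters of genes higher with Stat5a/b siRNA (39 of 741), 6.41% of those of lower genes (64 of 998) and 6.03% of all 15384 promoters (928).

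The unfolded protein and integrated stress response, which cells use to slow translation and restore protein folding and amino acid supply, was also called lower more often than higher: 10 of 27 genes were lower with Stat5a/b siRNA (6.05% of all genes), 1 was higher (4.70%) and 16 did not pass the test (median -0.20). CHAC1, a glutathione-degrading enzyme induced by ATF4, read 5.81, 5.94 and 5.75 with Stat5a/b siRNA, 6.50, 6.49 and 6.68 with Stat3 siRNA, and 6.41, 6.46 and 6.64 in controls. Stat3 siRNA and control arrays overlapped and the Stat5a/b siRNA arrays were low (-0.73 ± 0.10, limma adjusted p = 2.6e-04). The pseudokinase TRIB3 (-0.43 ± 0.065) and the serine synthesis enzyme PHGDH (-0.36 ± 0.057) fell with limma adjusted p of 4.3e-04 and 6.6e-04, and VLDLR, described above, is also in this list. Against scrambled siRNA, Stat5a/b siRNA called 10 of the 27 lower (background 3.30%) and Stat3 siRNA called 0 in either direction (7 at an unadjusted p of 0.05, limma). The gene that rose was ATF6, a sensor of misfolded protein (0.31 ± 0.055, limma adjusted p = 0.00131), named after its value was seen. Without 1 array, 7 or 8 of the 27 were lower.

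**Figure D4:**
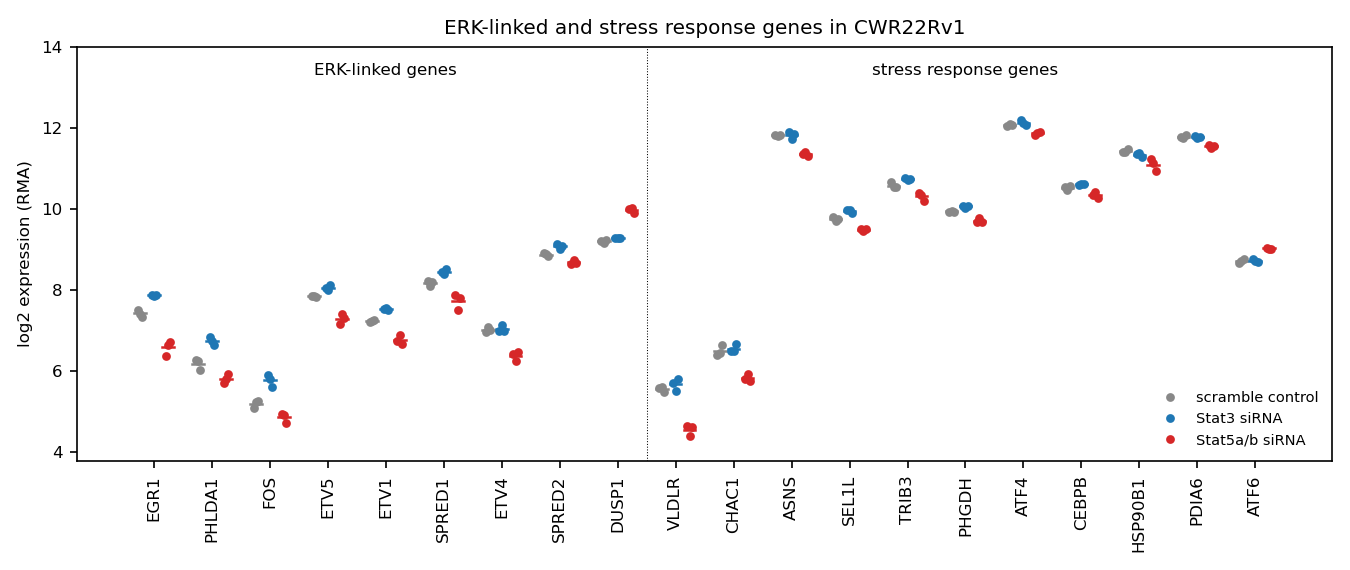
Log2 signal on each of the 9 CWR22Rv1 arrays (points, with lines for group means) for the 9 called ERK-linked genes and the 11 called stress-response genes. Stat3 siRNA points lie above the controls for genes such as FOS and ETV5, while for CHAC1 they lie with the controls and the Stat5a/b siRNA points lie below.

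In the JAK-STAT pathway itself, several receptors were called and no Janus kinase or pathway inhibitor was. Of 19 cytokine receptors, 6 were higher (4.70% of all genes) and 2 lower (6.05%), with a median of 0.22. The count of higher genes was 3 over the mean of probe sets and 1 at the most variable probe set, where 1 of 19 is near the share over all genes. IL6R, the ligand-binding receptor for IL-6, read 8.26, 8.26 and 8.16 with Stat5a/b siRNA, 7.55, 7.45 and 7.56 with Stat3 siRNA, and 7.37, 7.32 and 7.31 in controls. The Stat5a/b siRNA arrays were high (0.70 ± 0.068, limma adjusted p = 4.9e-06), though the most variable probe set gave 0.46 with an adjusted p of 0.144. IFNAR1, a chain of the type I interferon receptor, read 7.72, 7.89 and 7.74 against 8.71, 8.66 and 8.65, with controls at 8.51, 8.34 and 8.37. All groups were separate and Stat5a/b siRNA was lowest (-0.89 ± 0.078, limma adjusted p = 1.8e-06). IL10RB, a chain shared by IL-10 and interferon lambda receptors, rose by 0.42 (limma adjusted p = 3.0e-04) and IL13RA1 fell by 0.45 (limma adjusted p = 5.6e-04). Of 21 Janus kinases and pathway inhibitors, 0 passed the test in either direction, with a median of -0.006 (limma); at an unadjusted p of 0.05, 0 were higher and 3 lower.

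Most textbook targets of STAT3 and STAT5 did not pass the test. Of 28 STAT3 targets, 1 was higher (FAS) and 3 lower (CCND1, FOS, BIRC5), with a median of 0.054. Over all genes 4.70% were higher and 6.05% lower, and 1 higher gene of 28 is near that share. Of 21 STAT5 targets, 0 were higher and 4 lower (EGR1, CCND1, CEBPB and CCND3), with a median of 0.024; at an unadjusted p of 0.05, 0 were higher and 6 lower. CEBPB, a factor of the acute phase response, fell by 0.26 (limma adjusted p = 0.00709). Cyclin D3 (CCND3) differed by -0.29 (limma adjusted p = 0.0136), but lost its call without replicate 3 of Stat3 siRNA (0.0592) or of Stat5a/b siRNA (0.0671) and turned to 0.20 at its most variable probe set. The feedback inhibitors SOCS3 (0.23 ± 0.12, adjusted p = 0.269) and CISH (-0.06 ± 0.060, adjusted p = 0.6) did not pass the test. SOCS2, another such inhibitor, read 4.70, 5.02 and 4.93 with Stat5a/b siRNA and 5.52, 4.85 and 5.40 with Stat3 siRNA. The groups overlapped through the second Stat3 siRNA array (-0.38 ± 0.15, adjusted p = 0.118), and without that array SOCS2 was called at -0.58 (adjusted p = 0.00744). The survival genes BCL2L1 (0.15), MCL1 (0.045) and PIM1 (0.014) did not pass either. MYC read 10.96, 10.93 and 10.87 against 10.66, 10.65 and 10.60, which do not overlap, yet its adjusted p was 0.276 with the spread of all 18 arrays and 0.00288 with that of the 9 CWR22Rv1 arrays (0.29 ± 0.15 in the 18-array fit). With the replicate number as a block it was 0.0182, at the same difference of 0.29. Androgen-regulated KLK3 (0.24, adjusted p = 0.314) and KLK2 (0.10, adjusted p = 0.746) were not called, though the mean of KLK3 probe sets was (0.47, adjusted p = 0.0115).

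Of 22 antioxidant genes driven by NRF2, 8 were higher (4.70% of all genes) and 3 lower (6.05%), with a median of 0.16. NQO1, a quinone reductase and classical NRF2 target, read 9.74, 9.85 and 9.77 with Stat5a/b siRNA, 8.88, 8.75 and 8.82 with Stat3 siRNA, and 8.82, 8.89 and 8.84 in controls. Stat5a/b siRNA arrays were high and the other groups overlapped (0.97 ± 0.059, limma adjusted p = 2.0e-07). Peroxiredoxin PRDX1 (0.37 ± 0.049) and ferritin light chain FTL (0.36 ± 0.048) rose, whereas thioredoxin reductase TXNRD1 fell by 0.49 (SE 0.053, limma adjusted p = 1.9e-05). The other TXNRD1 probe set gave 0.041, without a call. The haem oxygenase HMOX1 (0.94 ± 0.16, limma adjusted p = 8.3e-04) was also among the rises and was named after its value was seen. Of 15 heat shock proteins, 4 were higher (4.70% of all genes) and 0 lower (6.05%), with a median of 0.12. The small chaperone HSPB8 led (0.41 ± 0.057, limma adjusted p = 2.0e-04), and the mean of its probe sets gave 0.22 (adjusted p = 0.0542).

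Of 19 genes of sterol synthesis and uptake, 4 were higher (4.70% of all genes) and 1 lower (6.05%), with a median of 0.11. The sterol reductase TM7SF2 read 10.40, 10.57 and 10.45 against 9.96, 9.89 and 9.83, with controls at 9.87, 9.93 and 9.89. Its Stat5a/b siRNA arrays were above all others (0.58 ± 0.081, limma adjusted p = 1.9e-04). The fatty acid elongase ELOVL7 fell by 0.63 (SE 0.064, limma adjusted p = 8.4e-06), 1 of 2 calls among 14 genes of fatty acid synthesis.

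Of 20 hypoxia-inducible genes, 4 were lower (6.05% of all genes) and 0 higher (4.70%), with a median of -0.10. BNIP3L, a mitophagy receptor, read 8.68, 8.59 and 8.61 with Stat5a/b siRNA, 9.69, 9.59 and 9.68 with Stat3 siRNA, and 9.10, 9.05 and 9.02 in controls. All groups were separate with controls between (-1.02 ± 0.077, limma adjusted p = 3.5e-07). EPAS1, the oxygen-regulated factor HIF-2 alpha, was highest on the Stat3 siRNA arrays, at 6.34, 6.21 and 6.32 against 5.50, 5.59 and 5.57 with Stat5a/b siRNA and 5.42, 5.36 and 5.35 in controls. Its difference was -0.74 ± 0.079 (limma adjusted p = 1.7e-05), and -0.15 over the mean of its probe sets (adjusted p = 0.347).

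In Hippo signalling, where YAP1 and its paralog WWTR1 (TAZ) are the transcriptional effectors, the paralogs moved in opposite directions. YAP1 read 9.40, 9.35 and 9.52 with Stat5a/b siRNA, 8.53, 8.62 and 8.70 with Stat3 siRNA, and 8.96, 8.88 and 9.02 in controls. WWTR1 read 6.81, 6.85 and 6.93 with Stat5a/b siRNA, 7.51, 7.36 and 7.58 with Stat3 siRNA, and 7.51, 7.38 and 7.45 in controls. YAP1 thus had controls between the siRNAs (0.81 ± 0.077, limma adjusted p = 4.3e-06), whereas WWTR1 was low with Stat5a/b siRNA alone (-0.62 ± 0.068, limma adjusted p = 1.9e-05). The most variable YAP1 probe set gave -0.19 (adjusted p = 0.321). In the TGF-beta pathway, 2 of 22 genes were higher and 2 lower, near the 4.70% and 6.05% over all genes. The receptor TGFBR1 fell by 0.66 (limma adjusted p = 5.8e-04), and the decoy receptor BAMBI rose by 0.64 (limma adjusted p = 0.00378). The 2 other TGFBR1 probe sets gave -0.24 and -0.059, without a call. The SMAD corepressor SKIL differed by -0.72 (limma adjusted p = 2.0e-04), but by -0.14 over the mean of its probe sets (adjusted p = 0.279).

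The RNA interference machinery, through which siRNAs act, had 4 of 14 genes lower (6.05% of all genes) and 2 higher (4.70%). Argonaute AGO1 read 8.09, 7.88 and 7.89 with Stat5a/b siRNA against 8.53, 8.56 and 8.61, with controls at 8.25, 8.33 and 8.30. It was lowest with Stat5a/b siRNA and highest with Stat3 siRNA (-0.61 ± 0.087, limma adjusted p = 2.2e-04). The GW182 proteins that Argonaute recruits differed in direction, TNRC6B by -0.84 (limma adjusted p = 2.8e-04; -0.58 and 0.104 at the most variable probe set) and TNRC6A by 0.42 (limma adjusted p = 0.00157; 0.13 and 0.161 over the mean of probe sets).

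A pair of collagens of mesenchymal cells was higher with Stat5a/b siRNA. COL3A1 read 5.10, 4.77 and 5.01 with Stat5a/b siRNA, 4.35, 4.38 and 4.12 with Stat3 siRNA, and 4.78, 4.78 and 4.71 in controls, and COL1A1 differed by 0.58 (limma adjusted p = 0.00208; 0.25 and 0.0559 over the mean of probe sets). For COL3A1 the Stat3 siRNA arrays were the low ones (0.68 ± 0.12, limma adjusted p = 0.00149). Both are fibroblast markers, of which 2 of 5 were higher and 0 lower (median 0.54); the summed linear signal of the 5 was 617 to 750 with Stat5a/b siRNA, 411 to 483 with Stat3 siRNA and 572 to 623 in controls. Of 20 mesenchymal genes, 3 were higher (4.70% of all genes) and 0 lower (6.05%), and vimentin (VIM) did not pass the test (-0.11, adjusted p = 0.387). Leukocyte markers had 0 of 3 calls and a summed signal of 53 to 58.9 with Stat3 siRNA and 52.9 to 62.9 with Stat5a/b siRNA. LAMB1, a laminin chain, rose by 0.84 (limma adjusted p = 9.3e-04), the luminal keratin KRT19 by 0.38 (7.2e-04) and the tight junction protein CLDN3 by 0.49 (0.00418), while occludin (OCLN) fell by 0.34 (0.002). The part of other cells in these values was not tested.

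Among 11 genes often used as references, 2 were higher (4.70% of all genes) and 2 lower (6.05%). The adaptor YWHAZ read 11.15, 11.23 and 11.25 with Stat5a/b siRNA, 11.93, 12.02 and 11.91 with Stat3 siRNA, and 11.87, 11.76 and 11.91 in controls. Its Stat5a/b siRNA arrays were low and the others overlapped (-0.75 ± 0.068, limma adjusted p = 2.4e-06). Lists of other functions gave 0 calls in either direction: 22 NF-kB targets, 32 oxidative phosphorylation genes, 33 ribosomal protein genes and 27 proteasome genes (limma). At an unadjusted p of 0.05 these held 3, 2, 0 and 2 genes.

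Several calls in these groups stood close to the threshold and were lost with 1 array fewer, mostly at much the same difference. Without any 1 of the 6 arrays this held for the chaperone DNAJA1 (0.16; 0.14 to 0.18 with 1 array fewer, limma adjusted p 0.0788 to 0.19), the lipogenic regulator THRSP (0.26; 0.24 to 0.28, 0.068 to 0.138), the histone H4C8 (0.46; 0.42 to 0.48, 0.0552 to 0.0979), the sterol regulator INSIG2 (-0.28; -0.31 to -0.21, 0.066 to 0.224) and GAPDH (-0.17; -0.18 to -0.16, 0.0912 to 0.134). Smooth muscle actin ACTA2 (0.40) lost its call without any array but Stat3 siRNA replicate 2 (0.36 to 0.43, adjusted p 0.0522 to 0.11). The sterol desaturase SC5D (0.26) lost it without Stat5a/b siRNA replicate 2 (0.23, adjusted p = 0.0598), and the caspase inhibitor XIAP (-0.35) without Stat5a/b siRNA replicate 3 (-0.28, adjusted p = 0.0663).

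Other calls were lost without some arrays and kept without others. The integrins ITGA1 (-0.53; -0.54 to -0.43, adjusted p 0.0509 to 0.098) and ITGAV (0.28; 0.26 to 0.28, 0.0677 to 0.0949), the transcription factor E2F3 (0.34; 0.29 to 0.34, 0.0714 to 0.111), the proteases CTSD (0.25; 0.21 to 0.24, 0.0631 to 0.0922) and CTSL (0.25; 0.23 to 0.25, 0.0607 to 0.09), the sterol oxidase MSMO1 (0.48; 0.46 to 0.48, 0.0511 to 0.0573) and SMAD3 (0.28; 0.21 to 0.27, 0.0901 to 0.148) each lost theirs without any of 4 arrays. These were Stat3 siRNA replicates 1 and 3 and Stat5a/b siRNA replicates 2 and 3 for ITGA1, Stat3 siRNA replicates 1 and 2 and Stat5a/b siRNA replicates 1 and 3 for ITGAV and E2F3, Stat3 siRNA replicates 2 and 3 and Stat5a/b siRNA replicates 1 and 3 for CTSD, Stat3 siRNA replicates 1 and 3 and Stat5a/b siRNA replicates 1 and 2 for CTSL, replicates 2 and 3 of both siRNAs for MSMO1, and Stat3 siRNA replicates 1 and 2 and Stat5a/b siRNA replicates 2 and 3 for SMAD3. The standard deviation of MSMO1 with Stat3 and Stat5a/b siRNA was 0.026 and 0.0081 in CWR22Rv1 and 0.064 and 0.37 in DU145, pooled in 1 SE. The apoptosis gene BOK (0.33; 0.27 to 0.34, adjusted p 0.0529 to 0.095) lost its call without Stat3 siRNA replicates 1 or 3 or Stat5a/b siRNA replicate 2. The pocket protein RBL1 (-0.34; -0.33 to -0.28, 0.0605 to 0.0879) lost it without Stat3 siRNA replicate 3 or Stat5a/b siRNA replicates 2 or 3, and AJUBA (-0.24; -0.23 to -0.19, 0.0662 to 0.105) without Stat3 siRNA replicates 1 or 3 or Stat5a/b siRNA replicate 3. Without Stat3 siRNA replicate 1, mevalonate kinase MVK (0.27) was at 0.23 (adjusted p = 0.0662) and the collagen hydroxylase P4HA1 (-0.30) at -0.27 (0.0729). MVK was also not called without Stat5a/b siRNA replicate 3 (0.25, adjusted p = 0.0561), nor P4HA1 without Stat5a/b siRNA replicate 2 (-0.28, adjusted p = 0.071).

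The same contrast in DU145 shares no array with the one in CWR22Rv1, but both take their SE from the same 18-array fit. It called more genes, 4379 of 19775 (22.1%), of which 2167 were higher and 2212 lower. Of the 2126 CWR22Rv1 calls, 958 were called in the same direction in DU145, which is 45.1% of the CWR22Rv1 list and 21.9% of the DU145 list; 142 were called in the opposite direction. Across all genes the differences in the lines had a Pearson correlation of 0.317, where genes are not independent replicates. The difference between the lines passed an adjusted p of 0.05 for 2086 genes (10.5%).

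Many of the largest falls were also found in DU145. Of the 15 falls, 12 were called lower in DU145, where 11.2% of all genes were, and 0 were called higher. Among the 12 were REEP3 (-1.12), LCOR (-1.26) and EGR1 (-1.11). Of the 15 rises, 7 were called in the same direction and 0 in the opposite one, among them CROT (1.17), BEX4 (1.14) and PHACTR2 (1.36). LPL (-0.04) and GPNMB (-0.0023) showed no call in DU145, and the difference between the lines was called for both (adjusted p = 0.0089 and 6.9e-05). LPL read 3.26 to 4.20 with these siRNAs in DU145, near the bottom of the signal range, where differences are compressed. In all, 8 rises and 3 falls differed between the lines. These genes were picked by their size in CWR22Rv1, and the test of the difference uses the same CWR22Rv1 arrays, which favours a larger value there.

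Gene groups that fell in CWR22Rv1 had other counts in DU145. The DU145 counts of higher and lower genes here and in the next paragraph are to be read beside all genes in DU145. Of those 19775 genes, 2167 were higher and 2212 (11.2%) were lower, both larger shares than in CWR22Rv1. For replication genes DU145 had 8 lower and 2 higher (median -0.0078), and 14 of the 37 were more negative in CWR22Rv1 by the test of the difference (background 5.65%). For mitosis genes it had 7 lower and 2 higher (median -0.095), with 10 of the 33 more negative in CWR22Rv1. CDC6 was called lower in CWR22Rv1 alone (DU145 -0.12; difference between the lines adjusted p = 7.6e-04), whereas BUB1B was called lower in both (DU145 -0.55; difference between the lines adjusted p = 0.925). In the stress response DU145 had 13 genes higher and 6 lower, and CHAC1 (DU145 0.69) and TRIB3 (DU145 0.52) were called in opposite directions in the lines. ETV5 (DU145 0.51) and CDKN1A (DU145 -0.29) were turned likewise, with adjusted p of 1.4e-05 and 1.0e-04 for the difference.

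Interferon-stimulated genes differed between the lines, 18 of 38 being more negative in CWR22Rv1 by the test of the difference (background 5.65%). In CWR22Rv1, 0 of 38 were higher and 3 were lower (IFIT5, IRF7 and ISG20; median 0.069; 2 higher and 4 lower at an unadjusted p of 0.05 in limma), where DU145 had 28 higher and 2 lower (median 0.73). IFIT5, an RNA-binding interferon effector, differed by -0.44 in CWR22Rv1 (limma adjusted p = 0.00316; -0.05 over the mean of its probe sets) and by 0.50 in DU145. IRF7, the interferon amplifying factor, differed by -0.59 in CWR22Rv1 and by 1.61 in DU145, and its CWR22Rv1 call was lost without replicate 3 of either siRNA (adjusted p = 0.0566 and 0.0808). ISG20 (-0.41, adjusted p = 0.0396) lost its call without any 1 of the 6 arrays (adjusted p 0.0735 to 0.12). MX1, an antiviral GTPase, read 5.33, 5.84 and 5.74 with Stat5a/b siRNA against 5.43, 5.46 and 5.33 in CWR22Rv1, which overlap, and differed by 2.55 in DU145. Of the 22 NRF2 targets, 17 were higher and 1 lower in DU145 (median 0.41), with 9 more negative and 2 more positive in CWR22Rv1 by the test of the difference. Sterol genes separated the other way, with 0 higher and 13 lower of 19 in DU145 (median -0.33) and 11 more positive in CWR22Rv1 by the test of the difference (background 4.90%).

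**Figure D5:**
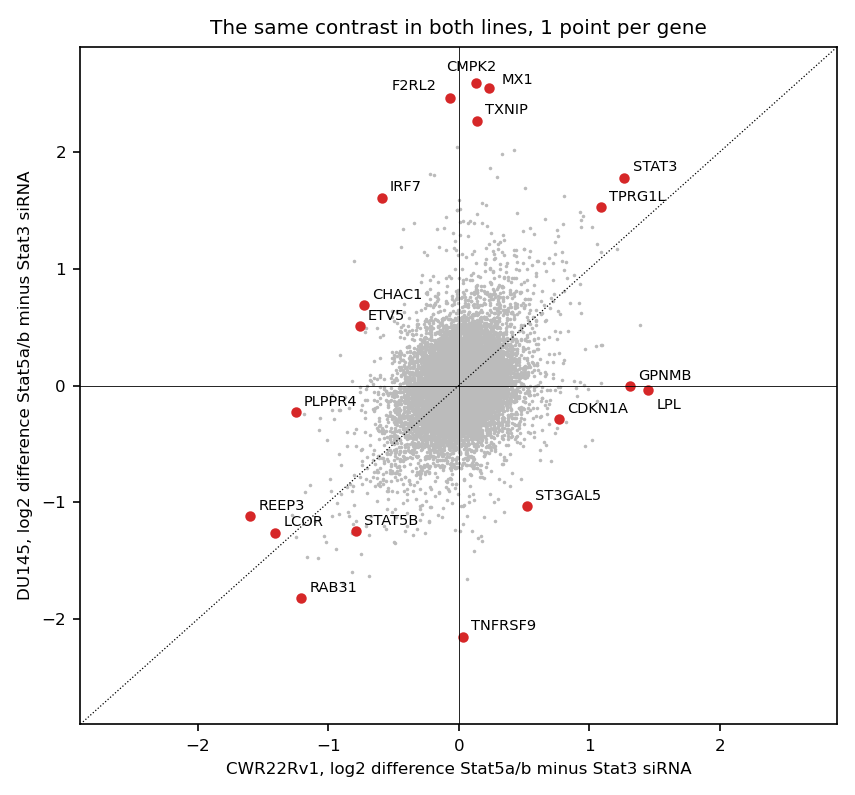
Stat5a/b minus Stat3 siRNA difference (log2) in CWR22Rv1 (x axis) and DU145 (y axis) for 19775 genes, with labelled examples. REEP3 and LCOR lie low in both lines, GPNMB (1.31 and -0.0023) moves along the x axis, and MX1 (0.23 and 2.55) along the y axis.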

How the data were processed

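Expression was measured on Affymetrix arrays, 1 sample per array, in 18 samples of DU145 and CWR22Rv1 cells given scrambled, Stat3 or Stat5a/b siRNA. The values used were the deposited log2 signals per probe set (1.54 to 14.3); RMA and limma are named per the submitters' processing notes, and versions are not given in the sources used here. RMA shares information across arrays and fits a summary over probes. Differences between low signals are compressed on these arrays. No counts exist, and the number of arrays limits the precision.

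Of 54675 probe sets, 41091 carried 1 gene symbol, 1801 several, 11721 none and 62 were controls. For each of 19775 genes the probe set of 1 symbol whose mean over all 18 arrays was highest was taken; 10523 genes had more than 1. A group-means model over 6 groups and 18 arrays was estimated in limma 3.58.1 (R 4.3.3) with eBayes, so each SE pools the spread of all groups. Genes were called at a Benjamini-Hochberg adjusted p under 0.05 over 19775 genes. Adjusted p-values in the text come from this fit unless another setting is named. The procedure was tested on simulated data.

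The contrast, the gene lists and the tests were chosen with earlier results of these data known. Named genes were the siRNA targets, the 15 largest called changes each way whose 3 arrays per group do not overlap, up to 4 called members with the lowest p of each list that had at least 2, classical pathway members, and the 5 most different genes each way between the lines. Same-numbered Stat3 and Stat5a/b siRNA arrays of CWR22Rv1 did not deviate together (r = -0.0573, -0.00665 and -0.0666), so no pairing was used in this contrast. The block was run as an alternative. Same-numbered control and Stat5a/b siRNA arrays of CWR22Rv1 had r of 0.139, 0.0912 and 0.053. The comparisons with scrambled siRNA were also fitted without pairing. Alternatives were fits on 9 or 6 arrays, quantile and cyclic loess normalisation, other probe-set rules, filters on mean signal, a trended robust prior, array weights, the replicate block and leaving out each array. Promoters came from the RefSeq table (GRCh38.p14). Some items are not reported here.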

Additional observations from a re-analysis of the deposited data

Results flagged for a closer look

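The difference between the lines, CWR22Rv1 minus DU145 of the Stat5a/b minus Stat3 contrast, passed an adjusted p of 0.05 (limma interaction) for 2086 genes. Of the genes named by the rule set out above, those that did so are given here with that difference in log2 units. Genes named outside the rule are not listed here. Genes named for their size or call in CWR22Rv1 were picked on arrays that this difference also uses, which favours a larger value in CWR22Rv1. Adjusted p ran from 8.8e-07 (TXNIP) to 0.0424 (SMAD3). Among the siRNA targets, STAT3 differed by -0.51 and STAT5B by 0.47, each having moved further in DU145. Of the largest rises, LPL (1.49), LRATD1 (1.50), GPNMB (1.31), MSMB (1.19), ABAT (1.07) and DDIT4L (0.75) were more positive in CWR22Rv1, and TPRG1L (-0.44) was more positive in DU145. Of the largest falls, PLPPR4 (-1.02), LOC105371703 (-0.94) and C4orf46 (-0.78) were more negative in CWR22Rv1. LPL, LRATD1, MSMB, PLPPR4 and LOC105371703 lie near the bottom of the signal range in DU145, where differences are compressed.

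Cell-cycle genes more negative in CWR22Rv1 were CDC6 (-0.53), TYMS (-0.36), KIF2C (-0.33), BIRC5 (-0.33), CDKN2B (-0.65), RBL1 (-0.53) and E2F3 (-0.50), the last being positive in both lines. CDKN1A (1.06) and CCND1 (0.49) were more positive, CCND1 being called lower in both lines, by less in CWR22Rv1. ERK-linked genes were more negative in CWR22Rv1: ETV5 (-1.27), FOS (-1.18), PHLDA1 (-0.71) and ETV1 (-0.70). So were the stress-response genes CHAC1 (-1.42), TRIB3 (-0.94) and PHGDH (-0.76), and CEBPB (-0.92).

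Interferon-linked genes stood apart: IRF7 (-2.21), CMPK2 (-2.46), MX1 (-2.31) and IFIT5 (-0.94). The receptors IFNAR1 (0.80), IL6R (0.74) and IL10RB (0.38) were more positive in CWR22Rv1, and CISH (-0.31) and PIM1 (-0.47) more negative. IFNAR1 was called lower in both lines, by less in CWR22Rv1. The genes with the largest differences each way also held F2RL2 (-2.52) and TXNIP (-2.13), and TNFRSF9 (2.18), BCL2A1 (1.72), ST3GAL5 (1.55), ADAM12 (1.54) and NUDT11 (1.51). Of these, ST3GAL5, a ganglioside synthase, was called in CWR22Rv1 (0.52) and in DU145 (-1.03), and the rest were called in DU145 only; F2RL2, BCL2A1 and ADAM12 lie near the bottom of the signal range in CWR22Rv1.

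The quinone reductase NQO1 (0.66), the sterol genes TM7SF2 (0.98), MSMO1 (0.68) and SC5D (0.45), the epithelial genes CLDN3 (1.01) and KRT19 (0.66), and the histones H2AC6 (0.74) and H2BC12 (0.53) were more positive in CWR22Rv1. This held as well for ABCC4 (0.96), PLAU (0.85), BCL2L2 (0.84), DKK1 (0.76), PHLDA3 (0.56), ACTA2 (0.53), CTSD (0.48), SMAD3 (0.37), ITGAV (0.37), F3 (0.36) and HSPB8 (0.33). TNRC6A (-0.74), SKIL (-0.59), EPAS1 (-0.57), MMP10 (-0.46), DNAJA1 (-0.34) and AJUBA (-0.29) were more negative. Of these genes, BCL2L2 was called lower in both lines and TNRC6A and DNAJA1 higher in both, each by less in CWR22Rv1. NQO1 went against most of its list, since 9 of 22 NRF2 targets were more negative in CWR22Rv1 and 2 more positive.

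Of the genes named by the rule, these were called in opposite directions in the lines: CEBPB, IFIT5, IRF7, CDKN1A, ABCC4, KRT19, CLDN3, CTSD, CHAC1, TRIB3, PHGDH, TM7SF2, SC5D, H2AC6, H2BC12, ETV5, DKK1 and ST3GAL5.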

How the results depend on the processing

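With only the 9 CWR22Rv1 arrays fitted, 3775 genes were called (1825 higher, 1950 lower), and with array weights 4135 (2051 higher, 2084 lower). The 6 arrays of the contrast alone gave 1397 higher genes. Genes past 2-fold numbered 20 with the mean of all probe sets and 17 above a mean signal of 7. Receptors called higher numbered 3 with the mean and 1 with the most variable probe set. ERK-linked genes called lower numbered 13 with the 9 arrays and 5 above a mean of 7. At the most variable probe set CCND3 (0.20), PHLDA1 (0.028) and YAP1 (-0.19) changed sign. Leaving out 1 array gave 1388 to 1640 calls, 600 to 710 higher and 770 to 930 lower. Same-numbered Stat3 and Stat5a/b siRNA arrays deviated together in neither line (r in DU145 0.0116, 0.087 and 0.0281), while same-numbered control and Stat3 siRNA arrays of DU145 did (0.197, 0.158 and 0.328). The replicate block gave 2587 calls (1172 higher, 1415 lower) and, for the Stat5a/b minus Stat3 difference between the lines, genes called numbered 2739. Of the named genes' calls in this contrast it moved those of MYC (adjusted p = 0.0182) and GAPDH (0.0556). The causes were not tested. Of 149 values for named genes, 98 stayed on the same side of the threshold under every alternative, called ones with the same sign. The sign of values that were not called was not part of this count. Depth has no measure on arrays; low signals, such as that of MMP10, lie where differences are compressed.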

Other observations

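Further gene groups in CWR22Rv1 held calls in small numbers (limma adjusted p), to be read beside 4.70% of all genes higher and 6.05% lower. Of 32 replication-dependent histone genes, 3 were higher with Stat5a/b siRNA and 0 lower (3 and 2 at an unadjusted p of 0.05), with a median of 0.0034. H2AC6 read 7.39, 7.34 and 7.35 with Stat5a/b siRNA, 6.92, 6.91 and 7.12 with Stat3 siRNA, and 6.54, 6.55 and 6.49 in controls, so both siRNA groups lay above the controls (0.37 ± 0.059, adjusted p = 6.0e-04). Of 26 proteases of invasion and their inhibitors, 3 were higher and 1 lower: the urokinase PLAU differed by 0.57 (adjusted p = 0.00301; 0.38 and 0.0526 over the mean of its probe sets), and MMP10, at signals of 2.88 to 3.41, fell by 0.40 (adjusted p = 0.00736). Of 27 apoptosis genes, 3 were higher and 3 lower, and the survival factor BCL2L2 fell by 0.50 (adjusted p = 4.1e-04). Of 22 androgen-responsive genes, 1 was higher and 1 lower, near the shares over all genes. The efflux pump ABCC4 was higher (0.55, adjusted p = 7.2e-04), with 0.26 over the mean of its probe sets (adjusted p = 0.156). The elongation factor ELL2 was lower (-0.70, adjusted p = 0.00904).

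Genes outside the naming rule, chosen after their values were seen, were 4 single calls of other pathways and a receptor: the Notch target HES1 (0.46, adjusted p = 0.00423), the forkhead factor FOXO3 (0.50, adjusted p = 0.00418), the receptor EGFR (0.29, adjusted p = 0.0286), the clock repressor CIART (0.46, adjusted p = 0.019), and the IL-6 family receptor LIFR (0.59), 1 of the 6 receptors called higher. The Wnt antagonist DKK1 read 9.49, 9.43 and 9.47 with Stat5a/b siRNA, 9.21, 9.23 and 9.25 with Stat3 siRNA, and 9.56, 9.56 and 9.62 in controls, with Stat3 siRNA arrays lowest (0.23 ± 0.055, adjusted p = 0.0109).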
